A study of Bos taurus with 6 samples.

Results

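The genes followed here are often used as internal standards in quantitative PCR (qPCR), and they were measured in bovine mammary epithelial cells given a miR-199a-3p mimic. They were ACTB, GAPDH, EEF1A1, YWHAZ, PPIA and B2M, picked by gene ID as 6 of the 28522 gene rows in each library. All 6 passed the filter on low counts, which left 13949 rows for testing. The cells are called MAC-T in the growth protocol, an immortalised line of bovine mammary epithelium. Both groups received a small RNA at 50 nM, either the miR-199a-3p mimic or a negative control (NC) mimic, and were harvested at 48 h with 3 libraries each. A mimic is a synthetic duplex that acts in the cell as the microRNA it copies. The labels state triplicates without saying how separate the cultures were, so p-values refer to the spread between these samples alone, and that spread may be technical. All samples come from a single line, and no untransfected cells were analysed here. Symbols follow the list that defined the 6 genes, since the reference gene table matched 0 of the file IDs. Markers of mammary epithelium, other reference genes and the genes that share a pathway with the 6 could not be looked up for the same reason and were not analysed here.

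In qPCR the level of a transcript is read relative to a reference gene from the same RNA, so that differences in the amount or quality of input cancel out. The method rests on the reference transcript keeping the same level in all conditions compared. Any change in the reference appears, with the opposite sign, in every gene measured against it. Reference genes are drawn from processes that most cells need, such as the cytoskeleton, glycolysis, protein synthesis, protein folding and antigen presentation, and the transcripts of several of them are known to respond to culture conditions or cytokines.

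Library totals ran from 16303257 to 23720655 counts. NC replicate 2 stood apart from the other NC libraries in the whole table. The chi-square per degree of freedom against them was 30.2 and 38.2, compared with 8.37 between NC replicates 1 and 3 and 2.67 to 4.20 between mimic libraries. Results that rest on NC replicate 2 are therefore given with and without it. That library was singled out on these same data. Leaving it out lowered the fitted variation between libraries (biological coefficient of variation) from 10.9% to 5.19%. Adjusted p-values without it may therefore be too small, and they describe the remaining libraries only. The 6 genes together took 1.95% to 2.06% of the counts of a library.

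PPIA fell with the mimic, and it was the 1 gene of the 6 that passed the threshold. GAPDH, YWHAZ and EEF1A1 had estimated changes close to 0. ACTB was higher in all 3 mimic libraries without passing the threshold, and B2M varied widely within both groups. Levels below are CPM, counts scaled to a common library size with TMM normalisation, a scaling that centres the bulk of the genes between libraries. Changes are log2 fold changes of mimic over NC from edgeR's quasi-likelihood test, with p-values adjusted over all rows tested by the Benjamini-Hochberg method and a threshold of 0.05. Under this rule 1 of the 6 genes was called, against 11.8% of all rows tested. For falls alone the count was 1 of 6, against 4.40% of all rows. With 6 genes these counts say nothing about the set as a group. Groups did not overlap for 2 of the 6 genes, against 34.2% of all rows. The median log2 fold change of the 6 was 0.016, beside -0.0043 over all rows tested, and the median absolute change was 0.036 beside 0.16. Among the 1515 rows with a mean CPM at least that of B2M, the lowest of the 6, the median absolute change was 0.13. Of those rows 23.2% were called.

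PPIA (ENSBTAG00000012003) encodes cyclophilin A, an enzyme that isomerises proline bonds during protein folding and the target of cyclosporin. Its level was 1218, 1212 and 1253 CPM in NC replicates 1, 2 and 3 and 1001, 1029 and 1019 CPM in mimic replicates 1, 2 and 3. The 3 mimic libraries lay below the 3 NC libraries, and the libraries of each group lay close together. The mean went from 1228 ± 22.3 to 1016 ± 13.9 CPM (SD, n = 3). The log2 fold change was -0.27, standard error 0.044 (95% interval -0.37 to -0.17), a fall to 0.828 of the NC level (edgeR adjusted p = 0.00632). With library size as the only scaling the log2 fold change was -0.33. NC replicate 2 did not stand apart for this gene. Without it the log2 fold change was -0.29 (edgeR adjusted p = 2.35e-05). The adjusted p was 0.0515 without mimic replicate 1, so the call was lost there while the estimate stayed at -0.26. In RNA from whole cultures a smaller number of expressing cells and less RNA per cell cannot be told apart. Transcripts of PPIA, and also those of GAPDH and EEF1A1, have many processed copies in mammalian genomes. The treatment of reads shared with such copies was not given in the sources used here.

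ACTB (ENSBTAG00000026199) encodes beta-actin of the cytoskeleton. Its level was 6476, 4682 and 6384 CPM in NC replicates 1, 2 and 3 and 7196, 7062 and 7089 CPM in the mimic replicates. All mimic libraries were above all NC libraries, and NC replicate 2 lay far below the other NC libraries, at 0.728 of their mean. The group means were 5847 ± 1010 and 7116 ± 71.0 CPM (SD, n = 3). The log2 fold change was 0.28, standard error 0.11 (95% interval 0.040 to 0.53, edgeR adjusted p = 0.125). Without NC replicate 2 the estimate dropped to 0.14, standard error 0.036, and ACTB then passed the threshold (edgeR adjusted p = 0.00624). With all libraries and library size as the only scaling it was 0.23. The size of the ACTB difference thus rested on NC replicate 2, whereas its sign was positive with and without that library. The closely similar gamma-actin gene can share reads with ACTB.

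GAPDH (ENSBTAG00000014731) encodes a dehydrogenase of glycolysis. It stood at 6662, 6636 and 6395 CPM in the NC replicates and at 6964, 6592 and 6270 CPM in the mimic replicates. The highest and the lowest library were both mimic libraries, so the groups overlapped fully. The log2 fold change was 0.0097, standard error 0.050 (95% interval -0.10 to 0.12, edgeR adjusted p = 0.923), and it was -0.044 with library size as the only scaling. Changes beyond 1.09-fold up or 0.931-fold down lay outside the interval.

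YWHAZ (ENSBTAG00000000236) encodes 14-3-3 zeta, an adaptor that binds phosphorylated proteins. Its levels were 223, 225 and 244 CPM in the NC replicates and 224, 238 and 242 CPM in the mimic replicates. The groups overlapped over nearly their whole range. The log2 fold change was 0.023, standard error 0.061 (95% interval -0.11 to 0.16, edgeR adjusted p = 0.842), and it was -0.031 with library size as the only scaling.

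EEF1A1 (ENSBTAG00000014534) encodes the elongation factor that brings aminoacyl-tRNA to the ribosome. It was at 5345, 6358 and 5274 CPM in the NC replicates and at 5509, 5495 and 5609 CPM in the mimic replicates. NC replicate 2 was the highest of all 6 libraries, at 1.20 times the mean of the other NC libraries, and the mimic libraries lay between it and them. The log2 fold change was -0.031, standard error 0.070 (95% interval -0.19 to 0.13, edgeR adjusted p = 0.808). Without NC replicate 2 it was 0.055 (edgeR adjusted p = 0.310). With all libraries and library size as the only scaling it was -0.084.

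B2M (ENSBTAG00000012330) encodes beta-2-microglobulin, the light chain of MHC class I and a transcript known to rise with interferon. Its levels were 102, 154 and 111 CPM in the NC replicates and 143, 115 and 119 CPM in the mimic replicates. A library of each group was high, NC replicate 2 and mimic replicate 1, and the groups overlapped. The log2 fold change was 0.041, standard error 0.15 (95% interval -0.30 to 0.38, edgeR adjusted p = 0.890), and it was -0.012 with library size as the only scaling. NC replicate 2 held 1.45 times the mean of the other NC libraries. Without it B2M passed the threshold as higher with the mimic, at 0.24, standard error 0.073 (edgeR adjusted p = 0.0192). ACTB, PPIA and B2M were then the 3 genes called of the 6, where 24.5% of all rows tested were called.

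**Figure D1:**
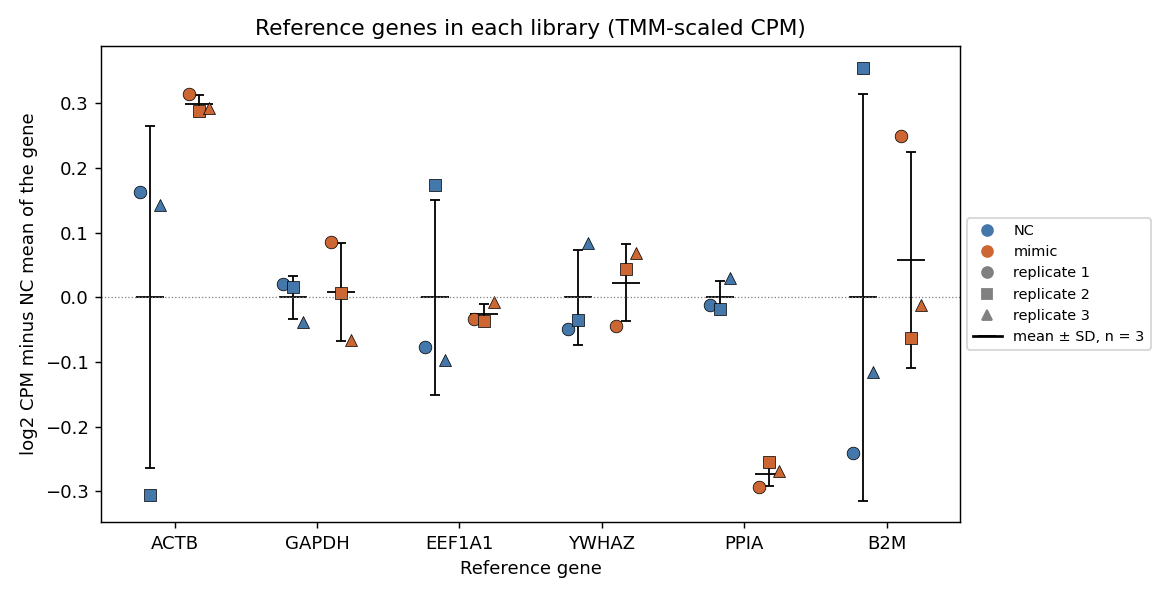
Level of each reference gene in each library, as log2 CPM minus the mean of that gene's NC libraries (y axis), with NC in blue, mimic in orange, a marker shape per replicate and bars for mean ± SD (n = 3). PPIA is lower in all mimic libraries, and NC replicate 2 (blue square) is low for ACTB and high for EEF1A1 and B2M.

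GAPDH and YWHAZ varied least over the 6 libraries, and ACTB and B2M varied most, an order that changed without NC replicate 2. The standard deviation (SD) of log2 CPM over all 6 libraries was 0.052 for GAPDH, 0.061 for YWHAZ, 0.097 for EEF1A1, 0.15 for PPIA, 0.23 for B2M and 0.23 for ACTB. GAPDH and YWHAZ ranged 1.11-fold and 1.10-fold from the lowest to the highest library. ACTB and B2M ranged 1.54-fold and 1.51-fold. The median SD was 0.17 over all rows tested and 0.11 over the 1515 rows with a mean CPM at least that of B2M, the lowest among the 6. Of these abundant rows, 10.4% had a smaller SD than GAPDH and 16.2% a smaller one than YWHAZ. The share was 40.4% for EEF1A1, 68.1% for PPIA, 84.9% for B2M and 86.1% for ACTB. With all 6 libraries PPIA, B2M and ACTB were above the median SD of the abundant rows, and GAPDH, YWHAZ and EEF1A1 below it. The places of EEF1A1 and ACTB rested on NC replicate 2. Without it EEF1A1 was the steadiest of the 6, with an SD of 0.036, followed by GAPDH at 0.058, YWHAZ at 0.063 and ACTB at 0.081, all below the median of 0.088 for the abundant rows. PPIA at 0.16 and B2M at 0.18 were above it. The share of abundant rows with a smaller SD was then 7.06% for EEF1A1, 24.2% for GAPDH, 30.2% for YWHAZ, 44.4% for ACTB, 79.9% for PPIA and 84.8% for B2M. Counting error was small beside this spread, since the lowest count of each gene allows an SD of 0.0044 (ACTB and GAPDH) to 0.034 (B2M) on the log2 scale.

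**Figure D2:**
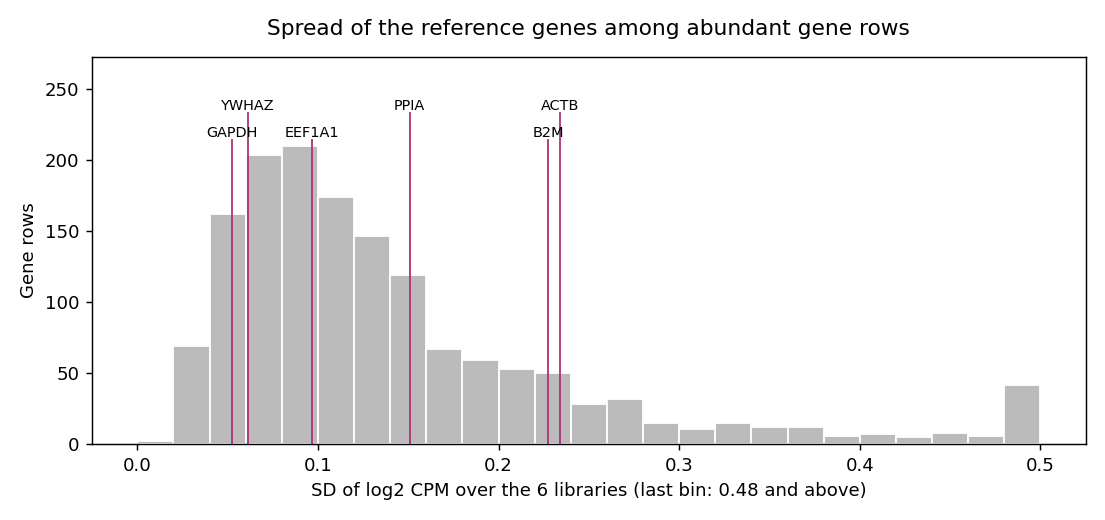
Histogram of the SD of log2 CPM over the 6 libraries (x axis) for the 1515 gene rows with a mean CPM at least that of B2M (y axis, number of rows), with the 6 reference genes as vertical lines. GAPDH and YWHAZ lie at the steady end, EEF1A1 near the middle, and PPIA, B2M and ACTB to the right.

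Within groups the order was another. In the NC libraries PPIA had the smallest SD, at 0.026, followed by GAPDH at 0.033 and YWHAZ at 0.074, while EEF1A1, ACTB and B2M were at 0.15, 0.26 and 0.31. In the mimic libraries ACTB, EEF1A1 and PPIA were at 0.014, 0.016 and 0.020, YWHAZ and GAPDH at 0.059 and 0.076, and B2M at 0.17. As coefficients of variation of CPM, ACTB went from 17.3% in NC to 0.997% in mimic libraries and EEF1A1 from 10.7% to 1.12%. For both genes the large NC spread rested on NC replicate 2, at 4682 CPM for ACTB and 6358 CPM for EEF1A1. NC replicates 1 and 3 lay close together, at 6476 and 6384 CPM for ACTB and 5345 and 5274 CPM for EEF1A1. GAPDH was the exception, with 2.24% in NC and 5.25% in mimic libraries. With NC replicate 2 included, the SD was larger in NC for 5 of the 6 genes, and for 69.9% of all rows tested. The exact permutation test (two-sided) on absolute deviations from the group mean gave 0.1 for ACTB and EEF1A1 and 0.3 after adjustment over the 6 genes. As 0.1 is its smallest p for 3 against 3 libraries, this test could not pass 0.05 for any gene and does not decide whether the spreads differed.

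The ratio of 2 genes within a library does not depend on how libraries are scaled. It is the read-count counterpart of a qPCR assay of 1 reference against another, and no qPCR values were analysed here. The mean ratio to PPIA was higher in the mimic group for each of the other 5 genes. ACTB had the higher mean ratio in the mimic group against each of the other 5, although against B2M the difference of 0.24 became -0.090 without NC replicate 2. Among the 15 pairs the NC and mimic libraries did not overlap for 7, of which 4 held PPIA and 4 held ACTB. With all libraries the pair of ACTB and PPIA had the largest difference of the 15. Its log2 ratio was 2.41, 1.95 and 2.35 in NC replicates 1, 2 and 3 and 2.85, 2.78 and 2.80 in the mimic replicates. The mean difference was 0.57, or 1.49-fold, and 0.43 without NC replicate 2. The pair of PPIA and B2M then had the largest difference in size, at -0.52 for PPIA to B2M.

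YWHAZ against PPIA gave the tightest of the separated ratios. It went from -2.41 ± 0.048 to -2.12 ± 0.044 (SD, n = 3), a difference of 0.29 in log2. GAPDH against PPIA differed by 0.28, from 2.42 ± 0.058 to 2.70 ± 0.090. EEF1A1 against PPIA differed by 0.25, from 2.20 ± 0.17 to 2.45 ± 0.025, with NC replicate 2 at 2.39 close below the mimic libraries. Each of these 3 ratios showed higher values in 3 of 3 mimic libraries. ACTB differed by 0.29 against GAPDH, 0.32 against EEF1A1 and 0.28 against YWHAZ. These 3 differences were 0.13, 0.086 and 0.14 without NC replicate 2, with the groups still apart.

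Ratios among GAPDH, EEF1A1 and YWHAZ stayed within their spread. The mean difference was 0.035 for GAPDH to EEF1A1 with a pooled SD of 0.12. It was -0.014 for GAPDH to YWHAZ with a pooled SD of 0.12, and -0.049 for EEF1A1 to YWHAZ with a pooled SD of 0.14. Ratios with B2M had pooled SDs of 0.17 (EEF1A1) to 0.42 (ACTB), and the ratio of ACTB to EEF1A1 had 0.29. With all libraries the groups overlapped in all 5 pairs with B2M. PPIA to B2M differed by -0.33 (exact permutation p = 0.3, two-sided). Without NC replicate 2 the groups were apart for B2M with PPIA, GAPDH and YWHAZ. The differences were then -0.52 for PPIA to B2M, -0.22 for GAPDH to B2M and -0.23 for YWHAZ to B2M. Groups still overlapped for B2M with ACTB and with EEF1A1. Each of the 7 pairs separated with all libraries had p = 0.1 in the two-sided exact permutation test. That p is the lowest value open to 3 against 3, and after adjustment over 15 pairs it was 0.214. This exact test cannot pass a threshold of 0.05 with so few libraries, whatever the ratio, so it does not decide between the pairs.

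**Figure D3:**
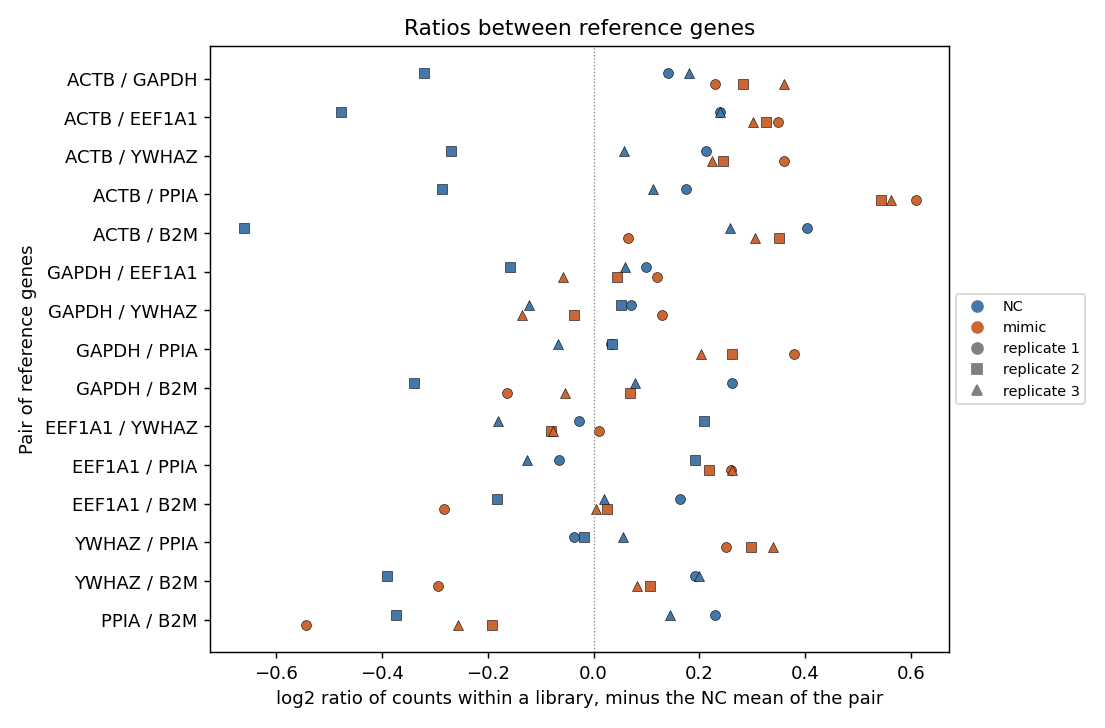
Log2 ratio of counts of 2 reference genes within each library, minus the NC mean of that pair (x axis), for the 15 pairs (y axis), with NC in blue and mimic in orange and a marker shape per replicate. Pairs with PPIA, apart from PPIA and B2M, show mimic libraries clear of NC libraries, and NC replicate 2 (blue square) is the outermost NC point in the pairs with ACTB or B2M.

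A common summary of such ratios is the geNorm measure M, the mean SD of a gene's log2 ratio with each of the other candidates, where a low value means a steady gene. Over all 6 libraries M was 0.167 for GAPDH, 0.177 for YWHAZ, 0.178 for EEF1A1, 0.232 for PPIA, 0.266 for B2M and 0.306 for ACTB. Removing the least steady gene in turn took out ACTB, then B2M, PPIA and YWHAZ. GAPDH and EEF1A1 were left as the pair with the steadiest ratio, with an SD of 0.105. The 3 lowest values lay within 0.02 of one another, and their order was not tested.

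The order depended on NC replicate 2 and on whether both groups were included. Without NC replicate 2, ACTB moved from the highest M to 0.122, level with GAPDH at 0.122, and EEF1A1 was lowest at 0.109. PPIA then had the highest value, 0.217, ahead of B2M at 0.194. Among the NC libraries alone PPIA had the lowest M of the 6, at 0.170. Among the mimic libraries alone ACTB, EEF1A1 and PPIA were lowest, at 0.0698, 0.0723 and 0.0759. PPIA, the gene that fell between the groups, was thus among the steadiest when each group was read on its own.

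**Figure D4:**
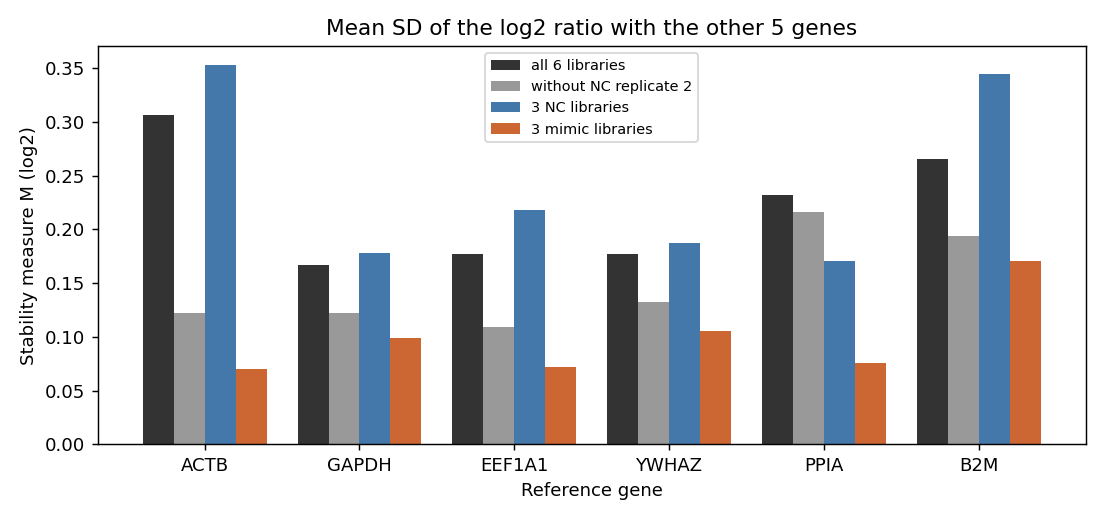
Stability measure M of each reference gene (y axis, log2 units, low values are steady), over all 6 libraries (black), without NC replicate 2 (light grey), in the 3 NC libraries (blue) and in the 3 mimic libraries (orange). ACTB goes from the highest value with all libraries to 0.122 without NC replicate 2, and PPIA is low within each group and higher when the groups are combined.

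Assays often use the geometric mean of several references. On the TMM scale the mean of all 6 genes differed by 0.015 in log2 between the groups, with an SD of 0.028 over the 6 libraries. This difference was 0.030 without NC replicate 2. Any 1 gene gave a difference of -0.27 (PPIA) to 0.30 (ACTB). The range without NC replicate 2 was -0.28 (PPIA) to 0.24 (B2M), with ACTB at 0.15. Sets of 2 genes ranged from -0.15 (EEF1A1 with PPIA) to 0.18 (ACTB with B2M), and sets of 3 from -0.097 to 0.13. Sets of 5 stayed between -0.042 (ACTB left out) and 0.072 (PPIA left out). In the mean of all 6 genes the opposite changes of ACTB and PPIA thus offset each other. The ranges for 2, 3 and 5 genes were -0.14 to 0.19, -0.087 to 0.15 and -0.011 to 0.093 without NC replicate 2. The steadiest set of 2 was GAPDH with YWHAZ, with an SD of 0.017 both with and without NC replicate 2. ACTB with PPIA differed by 0.013 and had an SD of 0.089, but differed by -0.068 without NC replicate 2. These sets were ranked on the same libraries, so the values describe them and were not tested.

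The choice of standard was carried to the whole table by replacing the library size with the count of 1 reference gene and repeating the edgeR test. Such a standard shifts all rows by the opposite of its own change, so the direction of the shift follows from the fold changes above, and the counts show its size in calls. With TMM scaling 1029 genes rose and 614 fell. PPIA as the standard gave 5951 rises and 142 falls (43.7% of rows called), and the median log2 fold change of all rows was 0.27. The 1029 rises were all called again, but of the 614 falls 141 were. ACTB as the standard gave 22 rises and 96 falls (0.846% of rows), with a median of -0.32. B2M gave 119 rises and 96 falls (1.54%), with a median of -0.076. Beside these counts, the biological coefficient of variation of the fit was 18.3% with ACTB and 19.9% with B2M, compared with 10.9% with TMM and 11.1% with PPIA. The part of that variation in the counts of calls was not tested.

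GAPDH, YWHAZ and EEF1A1 came closer to the TMM result. GAPDH gave 688 rises and 355 falls (7.48% of rows), YWHAZ 575 and 374 (6.80%), and EEF1A1 496 and 173 (4.80%), with medians of -0.012, -0.029 and 0.019. The geometric mean of all 6 gave 831 rises and 601 falls (10.3%), of which 828 rises and 562 falls were also called with TMM. Of the genes called with TMM, 473 falls were lost with PPIA and 1007 rises with ACTB.

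Without NC replicate 2 more rows were called under each of these scalings. PPIA gave 7701 rises and 208 falls (56.0% of rows), and ACTB 960 rises and 4171 falls (36.3%) with a median of -0.14, where TMM gave 1861 and 1599. B2M gave 236 rises and 1189 falls (10.1%) with a median of -0.23. EEF1A1 gave 1387 and 2392 (26.8%), and the geometric mean of the 6 gave 1578 and 1833 (24.1%). GAPDH, with 1231 rises and 971 falls (15.6%), and YWHAZ, with 1183 and 862 (14.5%), had medians of -0.0098 and -0.0041.

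**Figure D5:**
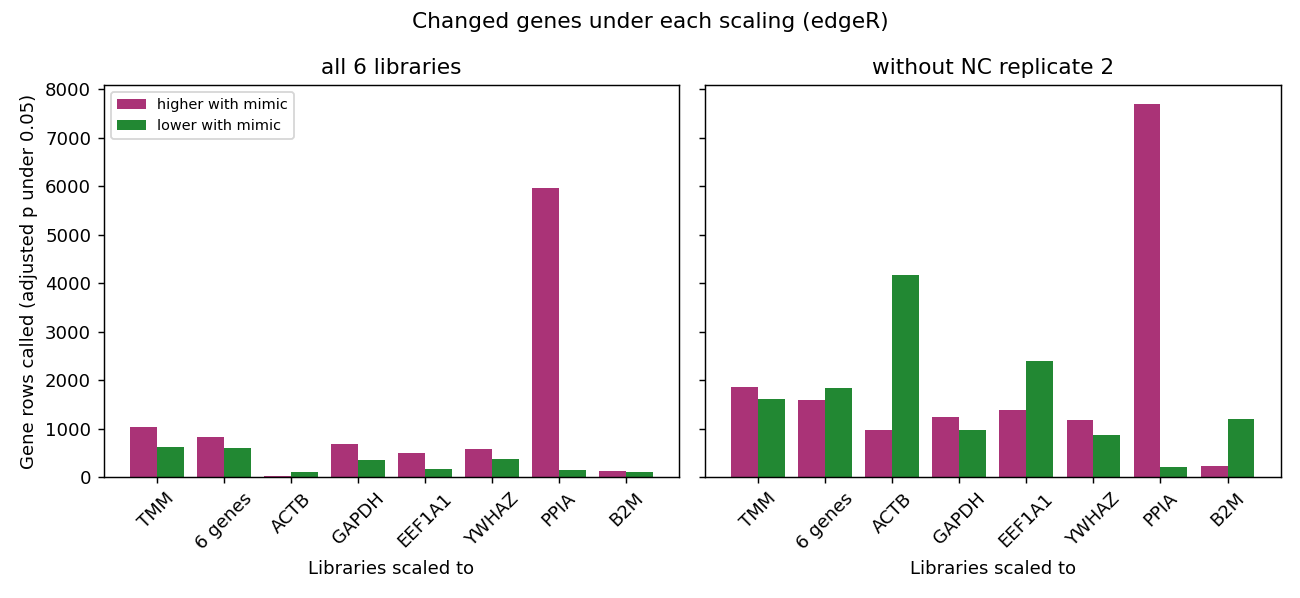
Number of gene rows called by edgeR at an adjusted p under 0.05 (y axis) as higher (purple) or lower (green) with the mimic, when libraries are scaled by TMM, by the geometric mean of the 6 genes or by 1 of them (x axis), with all 6 libraries on the left and without NC replicate 2 on the right. Scaling to PPIA gives 5951 and 7701 rises, and scaling to ACTB gives mostly falls, 96 and 4171.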

How the data were processed

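RNA from 6 samples was measured by mRNA sequencing, with TriZol extraction and an ABclonal kit per the labels' protocols. The authors deposited raw counts per gene ID, and HISAT2, DESeq2 and UMD3.1 appear, without versions or roles, per the submitters' processing notes. Counter, annotation release and strand setting were not given in the sources used here. Both the 6 genes and the lists were chosen with earlier results of these data known. Groups came from the sample titles. Counts were tested in R 4.3.3 with edgeR 4.0.16 (TMM, group as the only term, minimum count 10 and minimum total 15). Standard errors are the log2 fold change over the square root of its F statistic. Log2 CPM used a prior count of 2. Ratios and M used raw counts. Alternatives used other scalings and filters, limma 3.58.1 (voom), DESeq2 1.42.0, a replicate block and the omission of each library. Scaling to reference genes without NC replicate 2 and to the pair with the steadiest ratio, and sets of genes and ranks of spread without that library, were added after the data were seen. The fit was tested on simulated data, where edgeR recovered 53.1% of 1.5-fold and 89.9% of 2-fold changes. Of its calls there, 9.03% were false. Changes as small as those of the 6 genes were not simulated. A floor of 3 counts was 0.126 to 0.184 CPM. Plots used matplotlib 3.10.9.

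Named genes were, by rule, the 6 genes in every case. The rule also took list genes past the threshold, rows most like each of the 6 and the steadiest rows, all with symbols. As no row had one, the list genes were left out and at most 2 IDs were printed for each of the rest. No transcript lengths were used, so CPM does not rank genes by transcript level. It served as a measure of count depth, to choose rows with counts at least as deep as those of B2M.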

Additional observations from a re-analysis of the deposited data

How the results depend on the processing

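PPIA kept its fall in all 15 alternatives (log2 fold change -0.33 with library size only, -0.29 to -0.26 with 1 library left out) and its call in all but the omission of mimic replicate 1 (-0.26, adjusted p = 0.0515). ACTB stayed positive in all 15, at 0.14 to 0.36 with 1 library left out, and was called only without NC replicate 2 (0.14). B2M ranged from -0.078 to 0.24 with 1 library left out and was called only without NC replicate 2 (0.24). GAPDH, YWHAZ and EEF1A1 were called in none of the 15. Their signs turned near 0. With library size only GAPDH was -0.044, YWHAZ -0.031 and B2M -0.012. GAPDH was -0.0062 with the geometric mean of the 6 genes as library size and -0.0068 without a filter. Leaving out 1 library gave -0.030 to 0.046 for GAPDH, -0.0034 to 0.057 for YWHAZ and -0.088 to 0.055 for EEF1A1. The cause was not tested.

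The number of changed genes, 1643 in the reported fit, was 472 to 3460 with 1 library left out (1257, 3460 and 951 without NC replicates 1, 2 and 3, and 472, 510 and 520 without mimic replicates 1, 2 and 3). With 1 gene as library size it was 118 (ACTB), 1043 (GAPDH), 669 (EEF1A1), 949 (YWHAZ), 6093 (PPIA) and 215 (B2M), and 1060 with the pair of GAPDH and EEF1A1. Without NC replicate 2 as well it was 5131 (ACTB), 3779 (EEF1A1), 7909 (PPIA) and 3411 (all 6). With library size only 768 genes rose and 1010 fell. The geometric mean of the 6 genes gave 1432. RLE, upper quartile, both filters, DESeq2 and limma-voom gave 1608 to 1750. The SD of PPIA was 0.18 with library size only, against 0.15. The ratio of ACTB to EEF1A1 differed by 0.086 without NC replicate 2, against 0.32, and that of ACTB to B2M by -0.090, against 0.24.

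A replicate block gave 1411 changed genes, 909 rises and 502 falls, and it changed no call of the 6 genes. Same-numbered samples had correlations of 0.0031 to 0.054 between their deviations from the group means. NC replicate 1 was nearest to mimic replicate 1 (0.054) and NC replicate 2 to mimic replicate 2 (0.018), but NC replicate 3 was also nearest to mimic replicate 2 (0.038). These correlations were all small and the labels state no pairing, so the numbers were treated as unpaired. The 6 genes had 1836 counts or more in each library, where counting error on the log2 scale was at most 0.034.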

Other observations

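The row most like PPIA over the 6 libraries was ENSBTAG00000002507, with a root mean square difference of 0.014 between the mean-centred log2 CPM profiles. It fell from 1162 ± 20.04 to 975 ± 7.31 CPM (SD, n = 3; log2 fold change -0.25, edgeR adjusted p = 0.00854). The row most like ACTB, ENSBTAG00000017023, differed from it by 0.0195 on that measure and lay at 3.12 ± 0.544 CPM in NC and 3.84 ± 0.0688 CPM in mimic libraries. That level is far below those of the 6 genes, and counting error was not computed for this row. The closest of the other 5 reference genes to PPIA was YWHAZ, at 0.15, and 4002 of the 13949 rows were closer. For ACTB it was YWHAZ too, at 0.20, with 3515 rows closer. These rows were found on the same 6 values per gene and were not tested.

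Among rows with a mean CPM at least that of B2M, the steadiest was ENSBTAG00000045957, at 133 to 136 CPM in all 6 libraries, with an SD of log2 CPM of 0.015. The next, ENSBTAG00000001035, ran from 159 to 164 CPM with an SD of 0.017. In all, 158 of the 1515 abundant rows had a smaller SD than GAPDH. Their symbols were not looked up, and rows picked as the steadiest on these libraries would be expected to look less steady in others.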
